A study of Mus musculus with 6 samples.

Results

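The Hedgehog pathway genes described here are the 3 mouse ligand genes Shh, Ihh and Dhh, the membrane protein genes Ptch1, Smo and Hhip, and the transcription factor genes Gli1, Gli2 and Gli3. They were taken by name, as the array row (transcript cluster) that carries only that gene symbol, and all 9 were found among 19938 genes with a row of their own in a table of 35556 rows. The arrays held RNA from whole dorsal skin of BL6 mice, hybridized to Mouse Gene 1.0 ST arrays from Affymetrix, a platform that reads each transcript with probes along its length. The first group was 3 mice lacking the E3 ubiquitin ligase Cbl-b (Cbl-b-/-, spelled "clb-b -/-" in the labels), and the second was 3 wild-type (WT) mice. Both groups were shaved the day before, received a single exposure of 80 mJ/cm2 UVB and were sampled 24 h later, so the irradiation is shared by all 6 arrays. Animals were matched for sex and age, but neither is given in the sources used here, and nonirradiated skin was not analysed here. The sources do not give the construct of the knockout allele, and they do not limit the loss of Cbl-b to a cell type. Each array stands for 1 mouse.

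Hedgehog ligands are secreted proteins that bind Patched 1, which otherwise holds the transducer Smoothened inactive. Freed Smoothened signals through the primary cilium to the GLI transcription factors, and Gli1, Ptch1 and Hhip are themselves switched on by GLI, so that their RNA is widely used as a readout of the pathway. In skin, Shh comes from the epithelium of growing hair follicles and signals to the surrounding follicle and dermal papilla cells, and the pathway is best known there for its part in hair growth and in basal cell carcinoma.

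For 7 of the 9 members a promoter window was given in the RefSeq tables (build GRCm38.p6), and bases just upstream of 3 of them are shown because Ptch1 and Hhip, both targets of GLI, varied between the arrays while the ligand gene Dhh varied little. The Ptch1 bases lie at chr13:63565736-63565985, the Hhip bases at chr8:80058061-80058258 and the Dhh bases at chr15:98898563-98898790, all read on the minus strand, 5′ to 3′, with every CpG dinucleotide in capitals.
Ptch1: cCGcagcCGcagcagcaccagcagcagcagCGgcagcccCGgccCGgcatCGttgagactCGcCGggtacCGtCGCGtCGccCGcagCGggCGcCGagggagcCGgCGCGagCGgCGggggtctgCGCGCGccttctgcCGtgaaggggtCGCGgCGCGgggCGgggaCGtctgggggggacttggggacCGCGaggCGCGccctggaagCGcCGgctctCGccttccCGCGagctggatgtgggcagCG
Hhip: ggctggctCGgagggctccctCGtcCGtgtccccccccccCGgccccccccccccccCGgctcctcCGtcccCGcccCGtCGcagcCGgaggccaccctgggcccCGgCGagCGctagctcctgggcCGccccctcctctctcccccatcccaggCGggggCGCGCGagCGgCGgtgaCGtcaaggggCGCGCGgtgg
Dhh: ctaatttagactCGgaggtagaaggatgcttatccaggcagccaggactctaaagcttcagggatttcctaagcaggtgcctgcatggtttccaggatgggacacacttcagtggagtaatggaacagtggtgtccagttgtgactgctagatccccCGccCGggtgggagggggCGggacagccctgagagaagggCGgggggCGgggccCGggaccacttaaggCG
The 250 bases of Ptch1 held 41 CpG and were 78.4% G or C, and end at a start that lies 7725 bases inside the outer edge of the annotated gene. The Hhip and Dhh bases end at that outer edge, and the start used for the window lies 52 bases further in for Hhip and 22 for Dhh. The 198 bases of Hhip held 24 CpG and were 82.3% G or C. The 228 bases of Dhh held 8 CpG and were 59.2% G or C. Over the whole 300-base windows, Ptch1 had more CpG (47) than 98.6% of the 32851 windows in the tables, Hhip (30) more than 88.3% and Dhh (12) more than 60.4%, beside a median of 7. Ihh and Smo, which also varied little between the arrays, had 30 and 17 CpG. Gli2 and Gli3, which varied, had 28 and 39. A link between CpG count and variation between arrays was not tested. The GLI binding consensus GACCACCCA, searched on both strands, was in 0 of the 7 members' windows and in 83 of all windows (0.253%), which says only that these letters are not within 250 bases before or 50 bases after those starts.

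Values are log2 signals after robust multichip averaging, and array medians lay between 6.30 and 6.34. Cblb itself read 8.61, 8.69 and 8.61 in the Cbl-b-/- arrays, against 9.90, 9.66 and 9.72 in the WT arrays, lower in every Cbl-b-/- array (log2 fold change −1.12, SE 0.09, adjusted p = 0.0782 from limma). WT replicate 3 stood apart from the other arrays for particular genes, though over all rows it was the highest array for only 16.8%. In 189 of 35556 rows (0.532%) it lay more than 1 log2 unit above each of the other 5 arrays, and genes of the hair follicle and of pigment cells are among these rows. The same count was not made for the other arrays. No label sets the mouse of WT replicate 3 apart, so each member is given with and without it. A level was counted as shown above background when a group mean reached 5.34, the 95th percentile of 1210 rows for odorant and vomeronasal receptors, which are genes of the nasal epithelium.

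None of the 9 Hedgehog members passed the study's thresholds (unadjusted p under 0.05 and at least 1.5-fold) between irradiated Cbl-b-/- and WT skin in limma. Of all rows 1.22% did (434 of 35556), 0.276% as higher in Cbl-b-/-. Among the 21789 rows with 1 gene symbol, the kind used for the members, 47 passed as higher and 61 as lower. With shares this small, 0 of 9 does not set the members apart from other rows. The point estimates were lower in Cbl-b-/- for 6 members (Shh, Ptch1, Hhip, Gli1, Gli2 and Gli3) and higher for 3 (Ihh, Dhh and Smo). All 6 lower estimates turned to higher ones when WT replicate 3 was left out, and still 0 members passed. That array was the highest for all 6, so leaving it out raises these estimates whatever the genotype. The variation that stood out among the members lay within the WT group, where WT replicate 3 carried the highest value of 6 of the 9.

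Shh encodes Sonic hedgehog, the ligand of the hair follicle epithelium. It read 5.58, 5.90 and 5.63 in the Cbl-b-/- arrays, against 5.56, 5.63 and 7.03 in the WT arrays. The Cbl-b-/- values sat among those of WT replicates 1 and 2, except that Cbl-b-/- replicate 2 lay above both, and WT replicate 3 lay 1.13 log2 units above every other array, 2.19-fold over the next. Shh averaged 5.71 ± 0.17 in Cbl-b-/- and 6.08 ± 0.83 in WT skin (SD, n = 3 each), a log2 fold change of −0.37 with a 95% interval from −1.31 to 0.57 (adjusted p = 0.861 from limma). Without WT replicate 3 it was 0.11, with an interval from −0.20 to 0.42. In bulk skin, fewer cells of a type and less RNA per cell cannot be told apart, for this gene and for all that follow.

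The other ligand genes gave a flatter picture. Ihh, Indian hedgehog, is best known as the ligand of growing cartilage. It read 6.61, 6.68 and 6.67 in Cbl-b-/- skin, against 6.48, 6.53 and 6.55 in WT skin. Ihh was the one member whose groups did not overlap, with every Cbl-b-/- array above every WT array, as in 8.66% of all rows. The difference was small, with means of 6.65 ± 0.03 in Cbl-b-/- and 6.52 ± 0.04 in WT skin (SD, n = 3 each) and a log2 fold change of 0.13 (95% interval −0.04 to 0.30, adjusted p = 0.773 from limma). The per-row test of the study's methods gave Ihh an unadjusted p of 0.011 and an adjusted p of 0.675. The exact two-sided permutation p of Ihh was 0.1, the smallest that 3 against 3 arrays can give.

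Dhh, Desert hedgehog, is the ligand of Schwann cells and of the testis. It read 5.80, 5.82 and 5.66 in Cbl-b-/- skin, against 5.54, 5.77 and 5.59 in WT skin. The groups overlapped and no array stood off, with a range of 0.29 over all 6. The log2 fold change of Dhh was 0.13 (95% interval −0.10 to 0.36, adjusted p = 0.806 from limma), and 0.11 without WT replicate 3. Of the Schwann cell marker list, 7 of 10 genes were measured, and their median level relative to each gene's own mean ran from 0.02 to 0.16 in Cbl-b-/- arrays and from −0.22 to 0.04 in WT arrays. The part of that list in the Dhh values was not tested.

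**Figure D1:**
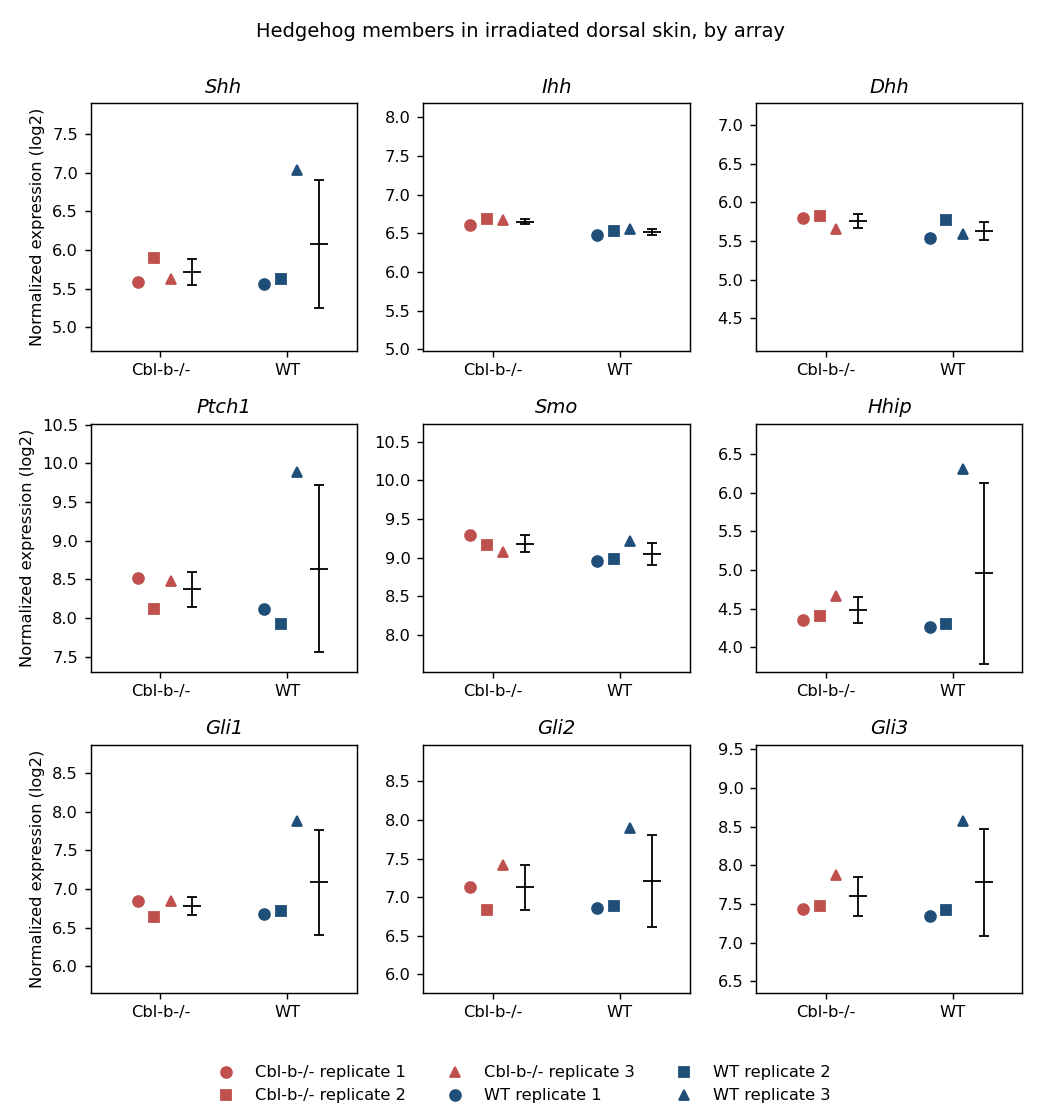
Log2 signal (y axis) of the 9 Hedgehog members in each array, with Cbl-b-/- arrays left of WT arrays, points for single mice and bars for the mean and SD of 3 mice. All panels span the same number of log2 units, and WT replicate 3 is the top point for Shh, Ptch1, Hhip, Gli1, Gli2 and Gli3, whereas Ihh, Dhh and Smo ran within 0.33 log2 units.

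Ptch1 encodes the receptor that binds the ligands and is itself a target of GLI. It read 8.52, 8.11 and 8.48 in the Cbl-b-/- arrays, against 8.12, 7.92 and 9.89 in the WT arrays. WT replicate 3 was 1.37 log2 units above the next array, or 2.58-fold, while Cbl-b-/- replicates 1 and 3 lay above WT replicates 1 and 2. Ptch1 averaged 8.37 ± 0.23 in Cbl-b-/- and 8.64 ± 1.08 in WT skin (SD, n = 3 each), with a log2 fold change of −0.27 (95% interval −1.48 to 0.94, adjusted p = 0.926 from limma). Without WT replicate 3 the difference was 0.35 (95% interval −0.04 to 0.74, adjusted p = 0.634 from limma). The WT standard deviation of Ptch1 was above that of 99.5% of rows.

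Smo, the transducer held inactive by Patched 1, is not counted among the usual GLI targets. It read 9.29, 9.17 and 9.08 in Cbl-b-/- skin, against 8.96, 8.98 and 9.21 in WT skin. Here WT replicate 3 lay within the Cbl-b-/- values, and the 6 arrays spanned 0.33 log2 units. The log2 fold change of Smo was 0.13 (95% interval −0.12 to 0.38, adjusted p = 0.815 from limma), and 0.21 (95% interval −0.03 to 0.46) without WT replicate 3.

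Hhip encodes a membrane protein that binds Hedgehog ligands and limits their spread, and its gene is a target of GLI as well. It read 4.36, 4.40 and 4.67 in the Cbl-b-/- arrays, against 4.26, 4.30 and 6.31 in the WT arrays. Hhip reached the background level of 5.34 in WT replicate 3 alone, 0.97 log2 units above that level, and the order of the 5 other arrays carries no information. Both group means, 4.48 ± 0.17 in Cbl-b-/- and 4.96 ± 1.17 in WT skin (SD, n = 3 each), lay under that background level, so the fitted difference of −0.48 (95% interval −1.78 to 0.81, adjusted p = 0.869 from limma) compares levels not shown above background and is no fold between measured levels. Without WT replicate 3 it was 0.19 (95% interval −0.11 to 0.50).

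Gli1 encodes an activator made in response to the pathway, and its RNA is the usual measure of pathway output. It read 6.84, 6.64 and 6.84 in Cbl-b-/- skin, against 6.68, 6.71 and 7.88 in WT skin. Values of the 5 other arrays ran from 6.64 to 6.84, and WT replicate 3 was 1.03 log2 units above the next array, or 2.05-fold. The log2 fold change of Gli1 was −0.31 (95% interval −1.08 to 0.46, adjusted p = 0.856 from limma), with means of 6.78 ± 0.12 in Cbl-b-/- and 7.09 ± 0.68 in WT skin (SD, n = 3 each). Without WT replicate 3 it was 0.08 (95% interval −0.17 to 0.34).

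Gli2 is the main activator that passes on the signal, and Gli3 is mostly a repressor in the absence of ligand. Gli2 read 7.13, 6.83 and 7.42 in Cbl-b-/- arrays, against 6.86, 6.88 and 7.90 in WT arrays. Gli3 read 7.44, 7.48 and 7.88 in Cbl-b-/- arrays, against 7.34, 7.43 and 8.57 in WT arrays. WT replicate 3 was again highest for both, by 0.48 log2 units for Gli2 and 0.69 for Gli3, and in both genes the array next to it was Cbl-b-/- replicate 3. The log2 fold change was −0.08 (95% interval −0.82 to 0.66, adjusted p = 0.967 from limma) for Gli2 and −0.18 (95% interval −0.99 to 0.63, adjusted p = 0.926 from limma) for Gli3. Without WT replicate 3 these were 0.26 (95% interval −0.19 to 0.71) for Gli2 and 0.22 (95% interval −0.18 to 0.61) for Gli3.

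**Figure D2:**
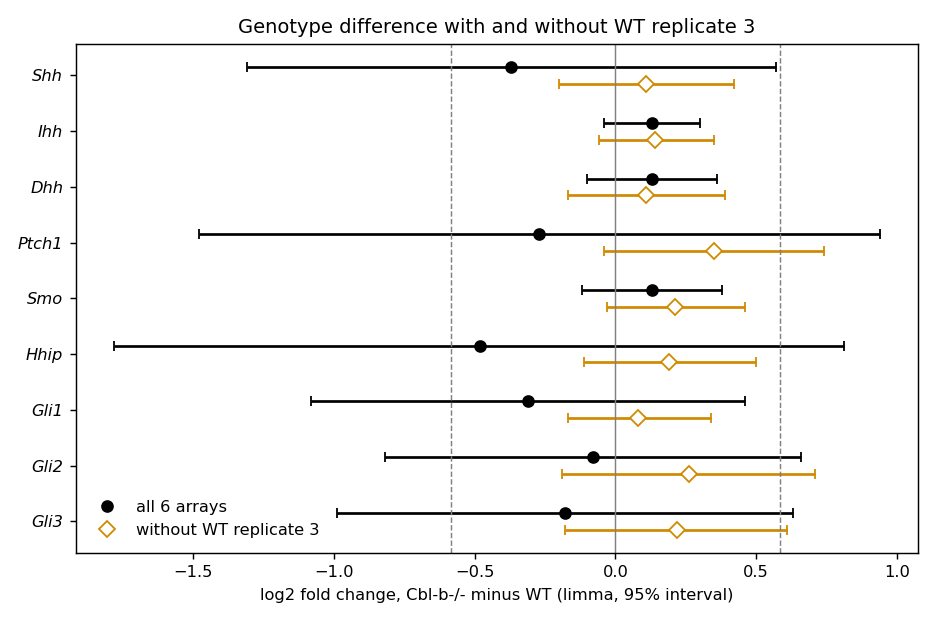
Log2 fold change, Cbl-b-/- minus WT (x axis), of each Hedgehog member with its 95% interval from limma, over all 6 arrays and without WT replicate 3. The estimates of Shh, Ptch1, Hhip, Gli1, Gli2 and Gli3 lie under 0 with all arrays and above 0 without that array, every interval includes 0, and dashed lines mark a 1.5-fold difference.

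Across the 9 members the median log2 fold change was −0.179, beside 0.0204 over all rows. Of the 9 members 3 lay above 0, as did 19834 of 35556 rows. Without WT replicate 3 the members' median was 0.194, beside 0.0207 over all rows. In that fit 9 of 9 lay above 0, as did 19639 of 35556 rows. For the 6 members highest in WT replicate 3, leaving it out raises the estimate whatever the genotype. The 9 of 9 is therefore not read as a genotype difference. With all arrays, 0 of the 9 members reached an unadjusted p under 0.05 in limma, where 6.55% of rows did, and 1 of 9 (Ihh) did in the per-row test of the methods. The 95% intervals of Ihh, Dhh and Smo lay inside a 1.5-fold difference (0.58 log2 units) in either direction, while those of the other 6 members reached beyond it on at least 1 side. For these 6, the 3 arrays of each genotype do not tell a 1.5-fold difference from none.

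The spread among arrays was the larger feature of the members. WT replicate 3 was the highest of the 6 arrays for 6 of 9 members, where it was for 16.8% of all rows. It exceeded every other array by more than 1 log2 unit for 4 of 9 (Shh, Ptch1, Gli1 and Hhip), where it did so for 0.532% of rows. For Hhip the other arrays were under the background level, and counted from that level its lead was 0.97, which leaves 3 of 9. Within the WT group, the standard deviation of Shh, Ptch1, Hhip, Gli1, Gli2 and Gli3 lay above that of 98.0 to 99.6% of rows, while Dhh (46.4%) and Smo (54.4%) sat mid-range and Ihh (7.19%) low. WT replicate 3 exceeded the mean of the other WT arrays by 1.87 log2 units for Ptch1, 1.44 for Shh, 1.19 for Gli1, 1.19 for Gli3 and 1.03 for Gli2. No such value is given for Hhip, whose other WT arrays were under the background level. The same difference was 0.24 for Smo, 0.05 for Ihh and −0.06 for Dhh.

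Genes of the hair matrix, hair shaft and inner root sheath, parts of the follicle that form during hair growth, moved with the varying members in WT replicate 3. Of 28 such genes 25 were measured, and WT replicate 3 was highest for 24 of them and more than 1 log2 unit above all other arrays for 20. Their median level was 5.75, 6.45 and 7.14 in the Cbl-b-/- arrays, against 5.48, 5.76 and 8.99 in the WT arrays. Relative to each gene's own mean, the median was −0.51, −0.11 and 0.26 in Cbl-b-/- and −0.86, −0.68 and 2.30 in WT skin. None of the 25 passed the thresholds between genotypes (median log2 fold change −0.339), and without WT replicate 3 the median was 0.566 and 2 passed, where 1.44% of all rows passed in that fit. For the 24 genes highest in WT replicate 3, leaving it out raises the estimate whatever the genotype. The median of 0.566 and the 2 that passed are therefore not read as a genotype difference. The part of these cells in the Hedgehog values was not tested.

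Within the Cbl-b-/- group the hair list was not uniform. Of its 25 genes 7 were more than 1 log2 unit higher in both Cbl-b-/- replicates 2 and 3 than in Cbl-b-/- replicate 1, and 13 ranged over less than 1 log2 unit, as all 9 members did. Krt25, an inner root sheath keratin named after its values were seen, read 5.02, 7.88 and 7.71 in Cbl-b-/- skin, against 5.05, 5.09 and 10.94 in WT skin. Tchh, the sheath protein trichohyalin, read 5.84, 7.86 and 8.41 in Cbl-b-/- skin, against 5.78, 5.99 and 10.92 in WT skin. Both belong to the 7. Msx2, a homeodomain factor of the hair matrix, read 6.22, 6.45 and 6.71 in Cbl-b-/- skin, against 6.03, 5.92 and 9.02 in WT skin, and belongs to the 13. Lef1, a Wnt-pathway transcription factor of the hair matrix, read 6.51, 6.66 and 6.79 in Cbl-b-/- skin, against 6.09, 6.31 and 8.95 in WT skin. It belongs to the 13 as well, with WT replicate 3 highest.

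Pigment cell genes were high in the same array. WT replicate 3 was highest for 7 of 7 melanocyte genes and more than 1 log2 unit above all others for 6. Among the 6, Tyr and Oca2 reached the background level in WT replicate 3 alone, and both their group means lay under it. Oca2 read 6.29 in WT replicate 3, so counted from the background level, as for Hhip, its lead is under 1 log2 unit. For both genes the order of the other arrays carries no information. Tyr, the tyrosinase that starts melanin synthesis, read 3.75, 4.24 and 3.82 in Cbl-b-/- skin, against 3.81, 3.82 and 7.00 in WT skin. The proliferation list, with 15 of 16 genes measured, had medians relative to each gene's mean of 0.02, 0.09 and −0.29 in Cbl-b-/- and −0.32, 0.03 and 0.53 in WT arrays, and WT replicate 3 was highest for 11. Dermal papilla genes, which mark the mesenchymal cells that receive Shh, had medians from −0.09 to 0.01 in Cbl-b-/- and from −0.28 to 0.13 in WT arrays over 12 genes. The list was mixed. WT replicate 3 was highest for 4 of the 12, by 0.91 log2 units for Wif1, 0.68 for Corin and Trps1 and 0.59 for Alx4. Cbl-b-/- replicate 2 was highest for 4 as well. The 7 measured markers of interfollicular keratinocytes, the labelled tissue's main epidermal cell, had medians relative to each gene's mean of 0.03, 0.02 and 0.04 in Cbl-b-/- arrays and 0.07, 0.14 and −0.29 in WT arrays, lowest in WT replicate 3. Krt5, the basal keratin, read between 11.45 and 11.80 in Cbl-b-/- and between 11.28 and 11.68 in WT arrays, with WT replicate 3 lowest. The part of these cell types in the members' values was not tested.

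**Figure D3:**
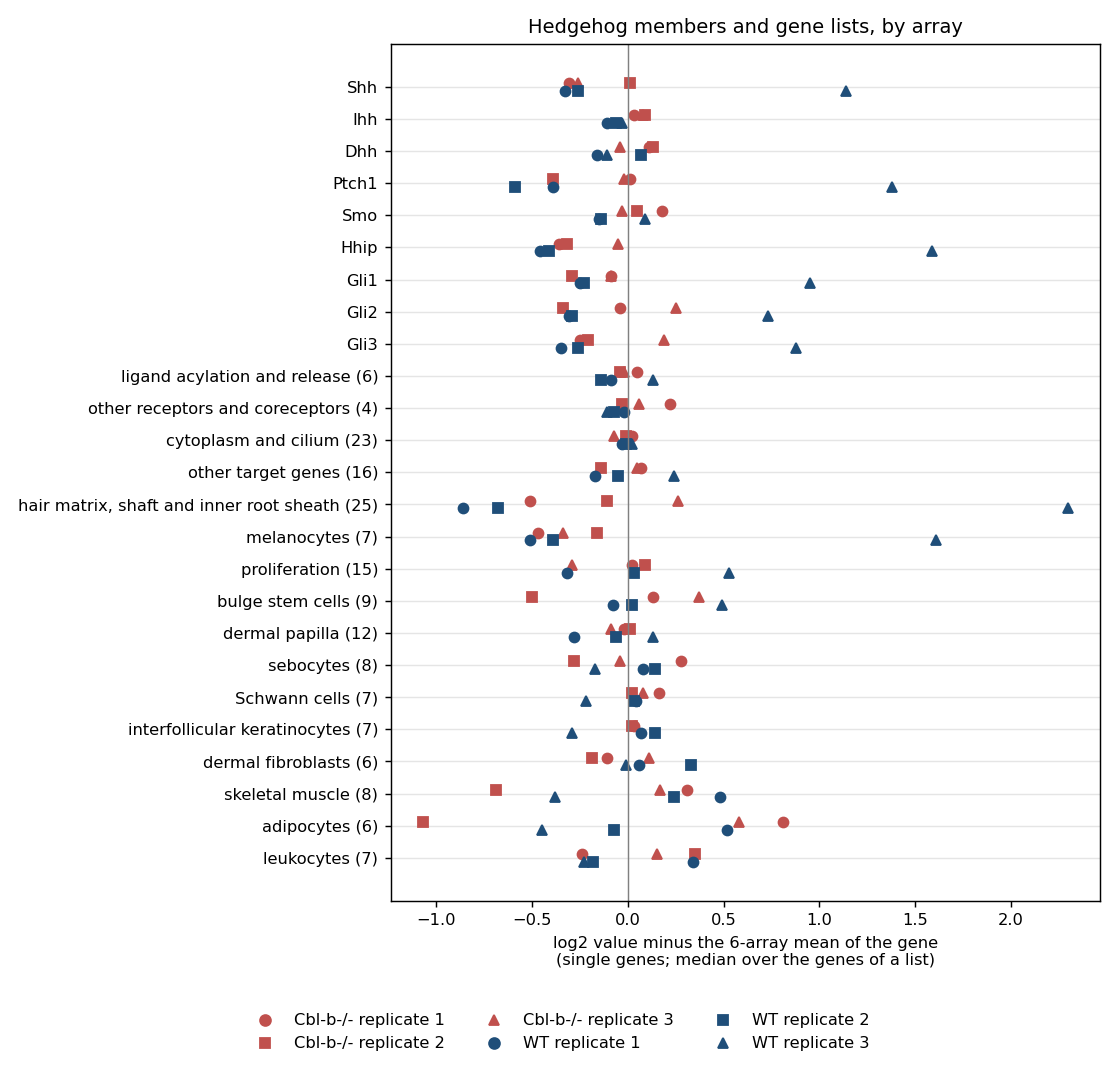
Log2 level relative to each gene's own mean over the 6 arrays (x axis) for the 9 Hedgehog members, and the median of that quantity over each gene list with the number of measured genes in brackets, with Cbl-b-/- arrays in red and WT arrays in blue. WT replicate 3 lies far to the right for 6 members, at 2.30 for the hair matrix list and at 1.61 for melanocytes, but near 0 for Ihh, Dhh and Smo.

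Profiles of the members were also compared with each other, as the root mean square difference over the 6 arrays after each gene's mean was taken off. This difference was 0.12 log2 units between Gli2 and Gli3, 0.15 between Gli1 and Gli3, 0.19 between Shh and Gli1 and 0.19 between Ptch1 and Hhip. It was 0.09 between Ihh and Dhh and 0.10 between Ihh and Smo. Among the 6 members with a high WT replicate 3 it ran up to 0.40 (Hhip and Gli2), and between one of these and Ihh, Dhh or Smo it ran from 0.35 (Smo and Gli2) to 0.78 (Dhh and Hhip), so the ranges met. These are descriptions over 6 shared arrays, and for 6 of the members the value of WT replicate 3 makes up most of the profile.

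By the same measure, the rows nearest to each varying member were listed, 5 for each (Mpp7 and Trps1 have 2 rows each, of which 1 was near). Nearest to Shh were Syna (0.05), Mpp7 (0.10), Actbl2 (0.10), Trpm1 (0.11) and Rnf180 (0.11), of which Trpm1 encodes melastatin, a channel of melanocytes and retina. Nearest to Ptch1 were Cybrd1 (0.12), Mycn (0.14), Padi1 (0.14), Krtap17-1 (0.15) and Otop2 (0.16), where Padi1 is a peptidylarginine deiminase of epidermis and Krtap17-1 a keratin-associated protein of the hair shaft. Nearest to Hhip were Pm20d1 (0.05), Bambi (0.07), Krtap17-1 (0.08), Dlx3 (0.12) and Cybrd1 (0.12), with Dlx3, a homeodomain factor of the hair matrix, also in the hair list. Ptch1 and Hhip thus shared Krtap17-1 and Cybrd1 among their 5, though 5 of the 6 values of Hhip lay under the background level. Pm20d1, Actbl2 and Trpm1 likewise reached that level in WT replicate 3 alone, so the order of their other arrays carries no information.

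For the GLI genes the likeness was as close. Nearest to Gli1 were Neo1 (0.05), Lurap1l (0.06), Trps1 (0.07), Oxct2a (0.07) and Nkd2 (0.08), of which Nkd2 is an inhibitor of Wnt signaling and Trps1 a zinc finger factor. Trps1 is also in the dermal papilla list, where its other row was used. Nearest to Gli2 were Efhd1, Sp6 and Zfp580 (0.08 each), with Tmeff1 and Smad6 (0.09 each), where Sp6 is a follicle and tooth epithelium factor and Smad6 an inhibitor of BMP signaling. Nearest to Gli3 were St8sia6 (0.06), Zfp580, Trim59 and Golga7b (0.07 each) and Slain1 (0.08). Gli2 and Gli3 shared Zfp580.

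Of 53 other genes of the pathway, 49 had a row of their own, and 0 of these passed the thresholds, beside 1.22% of all rows. Their median log2 fold change was −0.0213, over a range of −0.27 to 0.53. Of the 49 genes 20 lay above 0, beside 19834 of all 35556 rows. WT replicate 3 was highest for 21 of the 49 (by only 0.01 for Disp2, under the background level), beside 16.8% of all rows. An unadjusted p under 0.05 was reached in limma by 5 of the 49, beside 6.55% of all rows. These were Cdon, Gas1, Kif7, Efcab7 and Foxf2, with no overlap between the genotypes, the Cbl-b-/- side being higher, and adjusted p from 0.685 to 0.749. That pattern of no overlap on the higher side held for 5 of 49, beside 8.66% of all rows.

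The 6 genes of ligand acylation and release ran from −0.27 for Scube2, which helps to release lipid-bearing ligand, to 0.24 for Disp1, the exporter Dispatched 1. Disp1 read 8.89, 8.80 and 9.36 in Cbl-b-/- skin, against 8.86, 8.64 and 8.84 in WT skin, with its top value in Cbl-b-/- replicate 3. Scube2 read 7.50, 7.39 and 7.00 in Cbl-b-/- skin, against 7.46, 7.75 and 7.49 in WT skin. WT replicate 3 led for neither of these. It led for the other 4 of the 6, by 0.19 log2 units for Hhat, 0.35 for Scube1, 0.67 for Scube3 and 0.01 for Disp2. All arrays of Disp2 were under the background level, so their order carries no information. Scube3, a relative of Scube2, read 5.65, 5.43 and 5.59 in Cbl-b-/- skin, against 5.22, 5.35 and 6.33 in WT skin.

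For 0 of the 4 other receptors and coreceptors analysed was WT replicate 3 the highest array. Cdon, a coreceptor that presents ligand to Patched 1, had the largest difference of the 49. It read 5.32, 4.83 and 5.14 in Cbl-b-/- skin, against 4.68, 4.60 and 4.41 in WT skin, with no overlap, but both means (5.10 in Cbl-b-/- and 4.57 in WT skin) lay under the background level. Its fitted difference was 0.53 (SE 0.15, adjusted p = 0.685 from limma), just under 0.58, and it passed the thresholds when Cbl-b-/- replicate 2 (0.67) or WT replicate 1 (0.59) was left out. Gas1, another coreceptor and well above background, read 8.39, 8.14 and 8.43 in Cbl-b-/- skin, against 7.98, 8.13 and 8.05 in WT skin, with a log2 fold change of 0.27 (SE 0.10, adjusted p = 0.749 from limma). Boc, a close relative of Cdon, had the lowest value of the list (−0.13, SE 0.15).

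The 23 measured genes of the cytoplasm and cilium had a median of −0.0229. At their ends stood Efcab7, which tethers a Smoothened-regulating complex at the cilium base (0.27, SE 0.09, both group means under the background level), and Prkar1a, a regulatory subunit of the protein kinase that marks GLI proteins for processing (−0.21, SE 0.18). Kif7, a ciliary kinesin that controls GLI processing, was at 0.19 (SE 0.08, adjusted p = 0.749 from limma). None of these 23 carried a value in WT replicate 3 more than 1 log2 unit above all other arrays.

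Target genes of GLI other than the members ran from −0.26 for Wnt5a, a Wnt ligand, to 0.22 for Foxf2, a forkhead factor (SE 0.08, both group means under the background level), over 16 genes. Mycn, a proliferation factor induced by Shh, read 5.78, 5.81 and 5.98 in Cbl-b-/- skin, against 5.59, 5.39 and 7.23 in WT skin. Wnt5a read 6.49, 6.60 and 6.69 in Cbl-b-/- skin, against 6.48, 6.31 and 7.78 in WT skin. In both the Cbl-b-/- arrays lay above WT replicates 1 and 2 and under WT replicate 3, by 1.25 log2 units for Mycn and 1.08 for Wnt5a. They were the only 2 of the 49 with such a gap above 1, while WT replicate 3 was highest for 9 of the 16 targets.

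**Figure D4:**
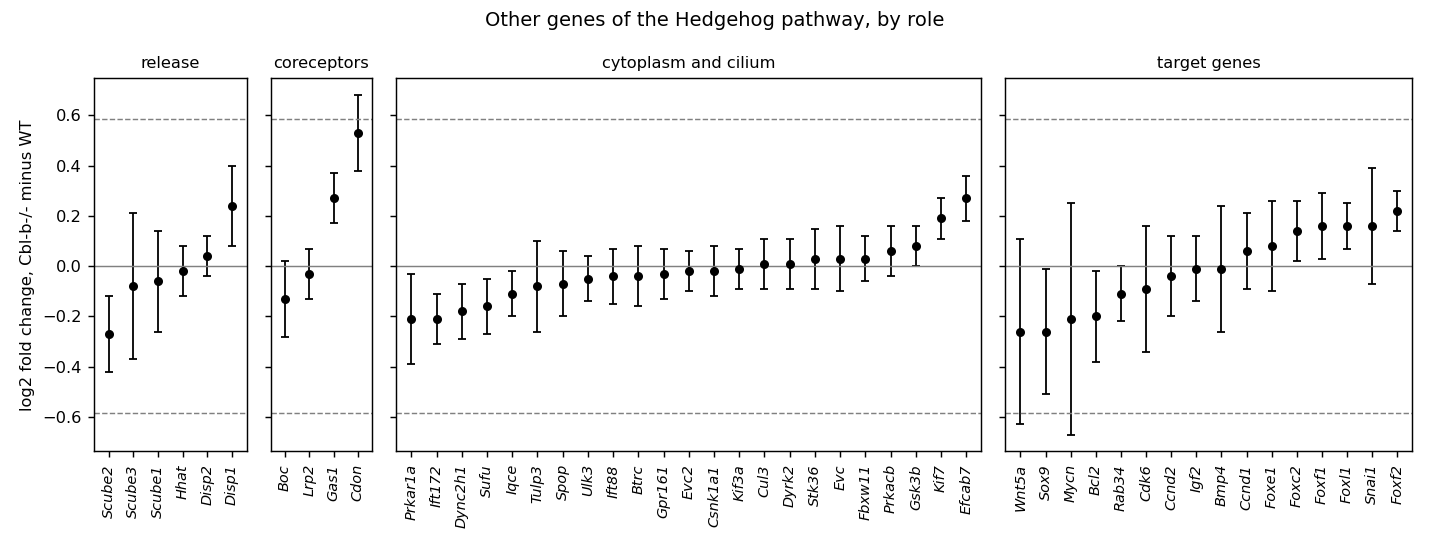
Log2 fold change, Cbl-b-/- minus WT (y axis), with bars of 1 SE from limma, of the 49 other Hedgehog pathway genes grouped by role. 0 of the 49 passed the thresholds, Cdon lies highest at 0.53 and Scube2 lowest at −0.27.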

How the data were processed

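RNA from the dorsal skin of 3 Cbl-b-/- mice and 3 WT mice was hybridized to Mouse Gene 1.0 ST arrays (Affymetrix). The authors summarized probes by robust multichip average (background correction, quantile normalization, median polish) in Partek Genomics Suite (6.5 in the submitters' processing notes) and deposited log2 values, which were used as given. Quantile normalization forces equal distributions on the arrays, and the number of arrays limits precision. Rows were named from GEO's platform annotation (21789 with 1 symbol, 1621 with several and 12146 with none). A gene is the row with exactly its symbol, or the one with the highest mean if several. Listed genes without such a row were not analysed here.

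Genotypes were compared as Cbl-b-/- minus WT with lmFit and eBayes of limma 3.58.1 (R 4.3.3) over all 35556 rows, with Benjamini-Hochberg adjustment over all rows. The study's thresholds were p under 0.05, read as unadjusted, and 1.5-fold. The script was tested on simulated data. Alternatives were the methods' per-row test, cyclic loess, median centring, a variance trend, array weights, a filter on dim rows, the mean of a gene's rows, the replicate number as a block and leaving out each array. Named were all members, pathway genes past the thresholds, the extremes of each pathway list and the 5 nearest profiles of members with a range above 1. Any others were chosen after their values were seen, including Gas1, Kif7, Mycn and the cell type markers named. Members and lists were chosen with earlier results of these data known. The methods call the arrays biological replicates. Promoter windows came from RefSeq, and those of Shh and Gli1 were not used here.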

Additional observations from a re-analysis of the deposited data

How the results depend on the processing

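Under every alternative 0 of the 9 members passed the thresholds. Leaving out WT replicate 3 turned the log2 fold change of Shh to 0.11, Ptch1 to 0.35, Hhip to 0.19, Gli1 to 0.08, Gli2 to 0.26 and Gli3 to 0.22. Leaving out each array in turn gave −0.63 to 0.11 for Shh, −0.63 to 0.35 for Ptch1, −0.83 to 0.19 for Hhip, −0.52 to 0.08 for Gli1, −0.26 to 0.26 for Gli2 (0.06 without Cbl-b-/- replicate 2) and −0.40 to 0.22 for Gli3. Array weights turned Ptch1 to 0.11 and Gli2 to 0.07. Ihh (0.11 to 0.15), Dhh (0.08 to 0.20) and Smo (0.08 to 0.21) kept their sign when each array was left out. The members' median ran from −0.401 to 0.194 and that of the hair list from −0.968 to 0.566. The count over all rows was 267 with the methods' per-row test, 235 after the filter on dim rows, which left out Hhip, and 428 to 790 (without Cbl-b-/- replicate 2) when each array was left out. Of the other pathway genes 0 to 1 passed when each array was left out. With the replicate number as a block, 453 rows and 0 members passed. Same-numbered arrays of the 2 genotypes correlated in their deviations from the group mean at 0.233, 0.0924 and 0.247. Arrays with different numbers correlated at −0.327 to 0.232. The main fit did not use the numbers to pair the mice, and whether they mark a shared source was not tested. The cause of these shifts was not tested. Levels under 5.34 are limited by signal over background. They include most or all values of Hhip, Cdon, Efcab7, Foxf2, Disp2, Tyr, Oca2, Pm20d1, Actbl2 and Trpm1. Genes of the hair and melanocyte lists lie there in part, among them Krt25 and, in their Cbl-b-/- means, Krt28, Krt32, Krt36 and Slc45a2.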

Other observations

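The 9 bulge stem cell genes, a mixed list of follicle stem cell markers, had medians relative to each gene's mean of 0.13, −0.50 and 0.37 in Cbl-b-/- arrays. In WT arrays these medians were −0.08, 0.02 and 0.49, and WT replicate 3 was the highest array for 4 of the 9. Fgf18, a growth factor of resting follicles, read 8.14, 7.23 and 8.36 in Cbl-b-/- skin, against 8.10, 8.17 and 7.10 in WT skin, so that its low arrays were Cbl-b-/- replicate 2 and WT replicate 3. Krt15, a bulge keratin, read 9.62, 8.31 and 9.84 in Cbl-b-/- skin, against 9.65, 9.69 and 8.95 in WT skin, with the same low arrays. Lhx2, a transcription factor of follicle stem cells, read 8.66, 7.59 and 8.80 in Cbl-b-/- skin, against 8.16, 8.26 and 9.14 in WT skin, low in Cbl-b-/- replicate 2 and high in WT replicate 3. Lgr5, a Wnt-pathway receptor of follicle stem cells, read 8.37, 8.15 and 8.78 in Cbl-b-/- skin, against 7.92, 7.88 and 9.18 in WT skin. Cbl-b-/- replicate 2 had Shh at 5.90 and Gli1 at 6.64. These genes were named after their values were seen.

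Adipocyte genes had medians relative to each gene's mean of 0.81, −1.07 and 0.58 in Cbl-b-/- and 0.52, −0.07 and −0.45 in WT arrays, with Cbl-b-/- replicate 2 lowest. No gene passed the thresholds among the adipocyte, sebocyte, leukocyte, fibroblast, Schwann cell, bulge, melanocyte, proliferation and keratinocyte lists (0 in each list). Of the 8 skeletal muscle genes 1 passed as higher in Cbl-b-/- skin (Myh2, log2 fold change 0.85, SE 0.28, adjusted p = 0.743 from limma), and it passed neither without WT replicate 3 nor in the per-row test of the study's methods. Of the 12 dermal papilla genes 1 passed as higher (Crabp1, log2 fold change 0.69, SE 0.23, adjusted p = 0.743 from limma), though not in that per-row test. Over all rows, 0.276% passed as higher.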
